A study of Mus musculus with 12 samples.

Results

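The members are 10 genes, the transcription factors E2f1, E2f2, E2f3, E2f5, E2f6, E2f7 and E2f8 and the pocket proteins Rb1, Rbl1 and Rbl2, among 22180 genes with a level. They were chosen by symbol, and each was read at whichever of its probe sets was brightest on average. The levels come from mouse embryonic fibroblasts, connective-tissue cells grown from embryos, whose RNA was hybridised to 12 one-colour Affymetrix arrays. The 4 groups of 3 arrays were wild-type cells (WT) at day 0 and at day 4, and Gdap1-null cells (KO) at day 0 and at day 4. Gdap1 is a gene for an outer mitochondrial membrane protein. Day 0 is before reprogramming, and the day 4 cells had received the reprogramming factors Oct4, Sox2, Klf4 and cMyc. All cells were kept in DMEM with serum. The treatment label shared by every array covers both a mock and a factor transduction and does not say whether day 0 cells were mock-transduced. The sources used here do not give the mouse strain, the Gdap1 allele or whether the arrays of a group came from separate cultures or animals. The p-values therefore reflect the spread between these arrays, which may be technical.

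E2F proteins bind promoters of genes needed for DNA synthesis and cell division. E2f1, E2f2 and E2f3 are the activators of the family, E2f5 is a repressor that acts with Rbl1 (p107) and Rbl2 (p130), E2f6 represses within a Polycomb complex without binding pocket proteins, and E2f7 and E2f8 are repressors that bind DNA without a DP partner. Rb1, Rbl1 and Rbl2 hold E2F proteins in check until cyclin-dependent kinases phosphorylate them. In resting fibroblasts Rbl2 is the pocket protein of the DREAM complex, which silences cell cycle genes, and E2f1 and Rbl1 are themselves textbook E2F targets.

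RefSeq promoter windows (GRCm38.p6, 250 bases before to 50 after a transcript start) were found for 8 of the 10 members, all except E2f5 and Rb1, 10 windows in all. They were searched on both strands for the E2F letters TTTCCCGC, TTTCGCGC, TTTGCCGC and TTTGGCGC. A match lay in 4 windows, 1 each of E2f2, E2f3, E2f7 and Rbl1, against 2.26% of all 32851 windows of 300 bases. The transcript starts of the E2f1, E2f6 and E2f8 windows lie 466, 56 and 477 bases inside the gene's outermost annotated start, and those of a second window of E2f2 and of E2f3 lie 8508 and 1673 bases inside it. Of the genes with a match, E2f3 passed as lower at day 4 in both genotypes, Rbl1 in KO cells and E2f7 in neither, and E2f2 passed as higher in WT cells. E2f1 and E2f8 had no E2F match in their windows and passed as lower in both genotypes. Those windows lie wholly inside the genes' outermost annotated starts, so the bases before these starts were not searched. The bases before the start of the 3 genes with an upstream match are printed below. They read 5′ to 3′ along the gene, with the E2F letters in capitals.
Rbl1, chr2:157204535-157204784, minus strand: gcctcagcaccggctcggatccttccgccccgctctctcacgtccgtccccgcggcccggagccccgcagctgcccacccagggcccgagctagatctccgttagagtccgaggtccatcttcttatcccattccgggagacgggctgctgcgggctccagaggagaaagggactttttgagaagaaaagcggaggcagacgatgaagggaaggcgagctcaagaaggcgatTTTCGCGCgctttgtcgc
E2f3, chr13:29986064-29986313, minus strand: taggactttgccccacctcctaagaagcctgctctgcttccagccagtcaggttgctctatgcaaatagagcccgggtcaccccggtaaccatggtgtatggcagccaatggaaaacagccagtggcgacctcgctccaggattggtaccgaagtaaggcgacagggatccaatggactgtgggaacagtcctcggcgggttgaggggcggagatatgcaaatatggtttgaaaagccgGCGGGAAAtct
E2f7, chr10:110745189-110745438, plus strand: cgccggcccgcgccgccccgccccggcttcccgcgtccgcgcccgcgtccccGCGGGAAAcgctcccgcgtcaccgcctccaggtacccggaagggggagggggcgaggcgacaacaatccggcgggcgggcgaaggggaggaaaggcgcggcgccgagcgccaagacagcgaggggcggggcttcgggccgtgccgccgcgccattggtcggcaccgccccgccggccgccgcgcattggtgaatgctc
In Rbl1 the letters TTTCGCGC begin at position -18 from the start, in E2f3 TTTCCCGC lies on the opposite strand from position -11, and in E2f7 the same letters lie on the opposite strand from position -198. The match in E2f2 lies after the start, from position 40, and is shown in 30 bases.
E2f2, chr4:136172294-136172323, plus strand: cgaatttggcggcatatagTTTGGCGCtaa
The same windows were also searched for the letters TTTGAA and TTCGAA of a second motif, CHR. These lay in the second window of E2f2 and in windows of E2f3, E2f8 and Rbl2, against 19.2% of all windows. A match describes letters and does not show that a factor binds there.

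The deposited values are log2 levels, in which 1 unit is a 2-fold difference, and each gene's level is compared only with its own level on other arrays. Array medians lay between 4.68 and 4.72, and WT day 4 array 1 stood apart most, with a mean correlation of 0.987 with its own group across genes against 0.991 to 0.997 for the other arrays. Gdap1 gave group means of 3.00 to 3.19, at the 14.1 percentile of all genes, and so near the floor it checks nothing about the genotype. Of the factors, Klf4 rose at day 4 (2.94 in WT and 3.28 in KO cells) and Myc fell (-1.02 and -0.94). Pou5f1 gave 0.10 in WT cells (limma adjusted p = 0.516) and rose by 0.38 in KO cells (adjusted p = 0.00541). Sox2 gave 0.19 and -0.10 and passed in neither (adjusted p = 0.338 and 0.599). It is not stated whether the probe sets of these factors read the transduced copies. The means of the 10 fibroblast markers over the 12 arrays lay between 8.59 and 12.81, with 3 higher in KO cells at day 0 and 2 higher and 3 lower at day 4. Macrophage and blood markers differed by genotype: 8 of 10 were lower in KO than in WT cells at day 0 and 8 of 10 at day 4, for example Cd68, with KO minus WT at -1.27 and -1.63. Their mean level was 6.35 to 6.40 in WT day 0, 6.10 to 6.92 in WT day 4, 5.07 to 5.22 in KO day 0 and 5.17 to 5.20 in KO day 4 arrays. By the mean over the 12 arrays none of the 10 was under the 25th percentile of all genes, 3.75. Ptprc was under that level in KO cells, at 3.66 on day 0 and 3.49 on day 4. Of 9 epithelial, 10 endothelial and 10 skeletal muscle markers, 2, 2 and 0 were lower in KO cells at day 0, none of them higher, and 3, 1 and 0 were lower at day 4, with 1 epithelial marker higher. Over all genes 2.48% were higher and 3.12% lower in KO cells at day 0, and 8.34% and 12.4% at day 4. The part of these markers in the genotype differences reported here was not tested. In RNA of whole cultures, fewer cells of a kind, such as dividing cells, and less RNA per cell cannot be told apart.

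In WT cells 7 of 10 members changed against day 0, at a limma adjusted p under 0.05 over all genes, where 22.9% of all genes did (11.1% higher and 11.7% lower). Rb1, E2f2 and Rbl2 were higher and E2f1, E2f3, E2f6 and E2f8 lower. In KO cells 6 of 10 changed, against 30.8% of all genes (13.8% higher and 16.9% lower), with Rb1 and E2f6 higher and E2f1, E2f3, E2f8 and Rbl1 lower. Between genotypes none of the 10 passed at day 0 in limma, where 3 members (E2f7, E2f8 and Rbl1) had an unadjusted p under 0.05, against 5.6% of all genes past the adjusted threshold (2.48% higher and 3.12% lower) and 16.7% at the unadjusted one. At day 4 KO cells differed from WT cells in 5 of 10, against 20.7% of all genes (8.34% higher and 12.4% lower), with E2f6 and Rb1 higher and E2f2, E2f8 and Rbl1 lower. The difference of the changes between genotypes passed for E2f6 alone of the 10, against 3.95% of all genes (2.15% with a higher and 1.81% with a lower change in KO cells). E2f2 and E2f8 had an unadjusted limma p of 0.0121 and 0.0209 for this difference and did not pass. The day 0 to day 4 step holds factor expression, transduction and time in culture together, and cell type markers moved with it. In WT cells 2 fibroblast markers rose and 5 fell, and in KO cells 1 rose and 5 fell. In turn, Thy1 changed by -1.03 and -0.45 and Dcn by 1.68 and 0.99. Of the epithelial markers 4 rose and 1 fell in WT cells and 1 rose and 1 fell in KO cells, with Krt14 at 1.51 and 0.67 and Krt18 at -0.92 and -0.50. Of the endothelial markers 2 rose and 2 fell in WT cells and 1 rose and 2 fell in KO cells, with Tek at 4.08 and 4.12 and Emcn at -2.11 and -0.75. Of the 10 skeletal muscle markers 2 fell in each genotype, Acta1 (-2.12 and -1.45) and Des (-1.74 and -1.45), and the other 8 did not pass. The part of these markers in the members' changes was not tested. The day 4 and genotype comparisons share arrays pairwise, so they are not independent of each other.

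The arrays of day 0 and day 4 did not overlap for 8 members in WT cells and 7 in KO cells, against 36.3% and 45.3% of all genes. Between genotypes they did not overlap for 4 members at day 0 and 4 at day 4, against 29.5% and 31.6% of all genes. Without any 1 of the 12 arrays the number of members called in WT cells lay between 4 and 7, with 4 without WT day 0 array 2 or WT day 4 array 2. In KO cells it lay between 4 and 7. At day 4 between genotypes it lay between 3 and 6, with 3 without WT day 4 array 2 or 3 or KO day 4 array 1 or 3. At day 0 between genotypes it was 0 to 2, with 2 (E2f7 and E2f8) without WT day 4 array 1 and 1 (E2f8) without WT day 4 array 3, arrays that enter this comparison only through the shared spread.

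**Figure D1:**
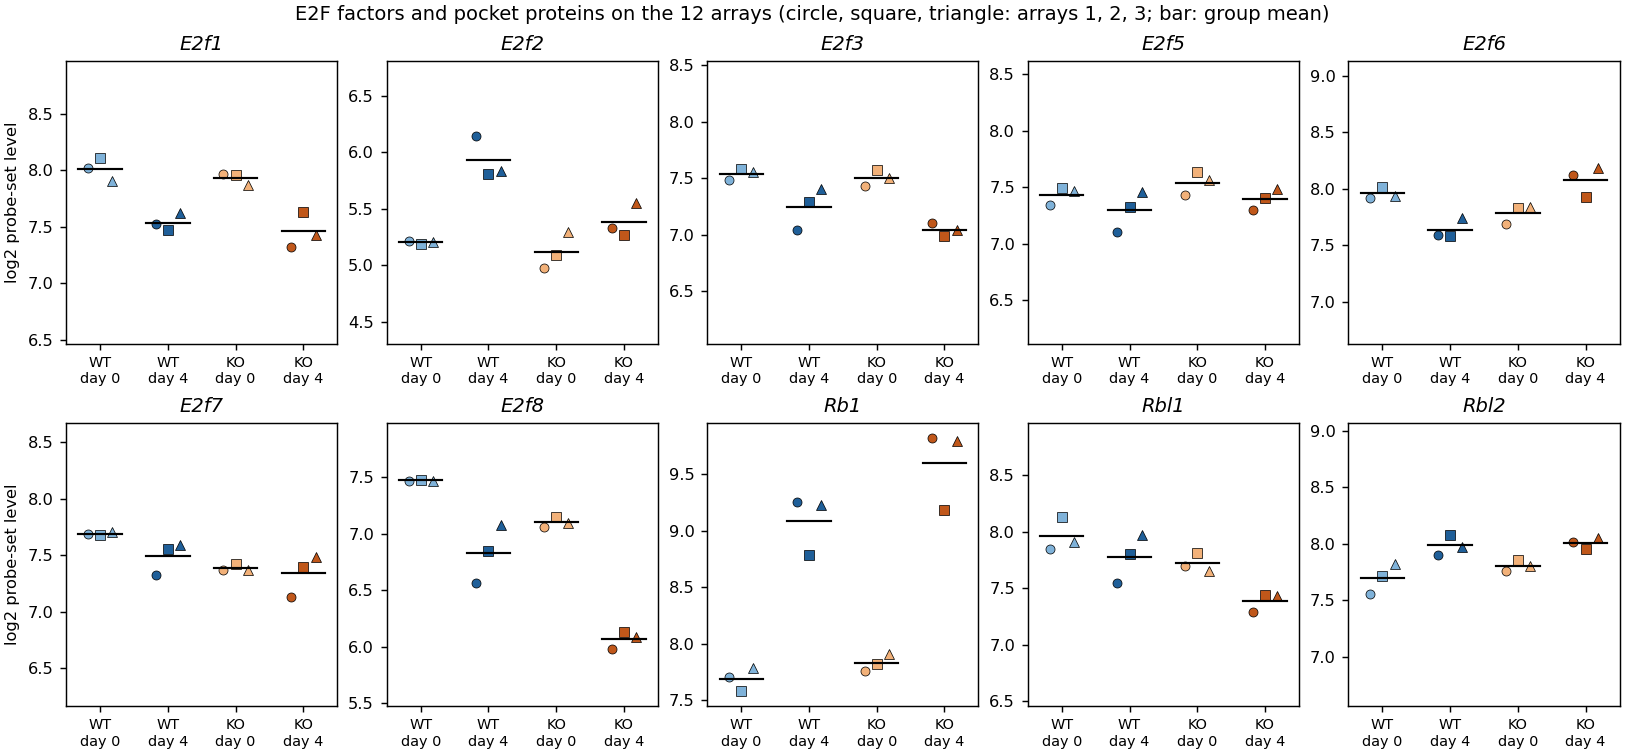
Log2 probe-set level (vertical axis, same span of 2.5 units in each panel) of the 10 members on each of the 12 arrays; circles, squares and triangles are arrays 1, 2 and 3 of a group and the bar is the group mean. The Rb1 arrays of day 4 lie at 8.78 or above and those of day 0 at 7.91 or below, and E2f6 moves in opposite directions in WT and KO cells.

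E2f1, the activator that drives entry into DNA synthesis, read 8.02, 8.11 and 7.90 in WT day 0 arrays and 7.52, 7.47 and 7.62 in WT day 4 arrays. In KO cells it read 7.97, 7.96 and 7.87 at day 0 and 7.32, 7.63 and 7.43 at day 4. Every day 4 array lay below every day 0 array in both genotypes, and the WT and KO arrays of 1 day overlapped. The log2 change was -0.47 ± 0.09 in WT cells (SE, n = 3 per group, limma adjusted p = 0.00226) and -0.48 ± 0.09 in KO cells (adjusted p = 0.00164), a 1.39-fold fall in each. The difference between these changes had a 95% confidence interval of -0.29 to 0.28, and KO minus WT was -0.07 ± 0.09 on both days (adjusted p = 0.783 and 0.628).

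E2f2, also an activator, moved the other way. Its arrays read 5.21, 5.19 and 5.20 in WT day 0, 6.14, 5.81 and 5.83 in WT day 4, 4.97, 5.09 and 5.29 in KO day 0 and 5.33, 5.27 and 5.55 in KO day 4. The WT day 4 arrays stood above all 9 others, while KO day 0 and day 4 overlapped. E2f2 rose by 0.73 ± 0.11 in WT cells (1.65-fold, adjusted p = 0.000379) and gave 0.27 ± 0.11 in KO cells (adjusted p = 0.0893). The latter passed when WT day 4 array 1 (0.27, adjusted p = 0.0436) or KO day 0 array 3 (0.35, adjusted p = 0.0471) was left out. At day 4 it was lower in KO than in WT cells (KO minus WT -0.54 ± 0.11, 1.46-fold, adjusted p = 0.0047), and at day 0 KO minus WT was -0.08 ± 0.11 (adjusted p = 0.797). The difference of the changes, -0.46 ± 0.16, did not pass (95% confidence interval -0.80 to -0.12, unadjusted p = 0.0121, limma adjusted p = 0.124). With a mean level of 5.41 it was the member at the lowest percentile of all genes, 51.5.

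E2f3, the third activator, gave 7.48, 7.58 and 7.55 in WT day 0 arrays, 7.04, 7.29 and 7.40 in WT day 4 arrays, 7.43, 7.57 and 7.50 in KO day 0 arrays and 7.10, 6.99 and 7.04 in KO day 4 arrays. All day 4 arrays lay below those of day 0 in their genotype. In KO cells E2f3 fell (-0.46 ± 0.09, 1.38-fold, adjusted p = 0.00197), a call held without any 1 of the 12 arrays. In WT cells it also fell (-0.29 ± 0.09, adjusted p = 0.0369), and that call was lost without any 1 of the WT day 0 arrays, WT day 4 array 1 (-0.19, adjusted p = 0.122) or 2, or KO day 0 array 3. KO minus WT was -0.20 ± 0.09 at day 4 (adjusted p = 0.146) and passed without WT day 4 array 1 (-0.30, adjusted p = 0.0156).

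E2f5 passed in none of the 5 comparisons, nor in any of them without any 1 of the 12 arrays. Its arrays lay between 7.10 and 7.63, and the groups overlapped in every comparison. The change at day 4 was -0.14 ± 0.10 in both genotypes, with a 95% confidence interval of -0.36 to 0.07.

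E2f6, the Polycomb-linked repressor, was the 1 member whose difference of changes between genotypes passed. It read 7.92, 8.02 and 7.94 in WT day 0 arrays and 7.59, 7.58 and 7.74 in WT day 4 arrays. In KO cells the order turned, with 7.69, 7.83 and 7.84 at day 0 and 8.12, 7.93 and 8.18 at day 4. It fell in WT cells (-0.32 ± 0.09, 1.25-fold, adjusted p = 0.0151) and rose in KO cells by 0.29 ± 0.09 (1.22-fold, adjusted p = 0.0217). The difference of the changes, KO minus WT, was 0.61 ± 0.12 (95% confidence interval 0.35 to 0.87, adjusted p = 0.0171). All 3 KO day 4 arrays lay above all 3 WT day 4 arrays, by 0.44 ± 0.09 on average (adjusted p = 0.00365), a call that held without any 1 of the 12 arrays. At day 0 all KO arrays lay below all WT arrays, and KO minus WT, -0.17 ± 0.09, did not pass (adjusted p = 0.343). The difference of changes narrowly missed the threshold without KO day 0 array 1 (0.56, adjusted p = 0.0509). The rise in KO cells was lost without that array or without KO day 4 array 1 or 3 (adjusted p = 0.0673 to 0.095), and the fall in WT cells without WT day 0 array 2 or WT day 4 array 2 (adjusted p = 0.0618 and 0.051).

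Of the pair of repressors E2f7 and E2f8, E2f8 fell in both genotypes and E2f7 passed in none of the 5 comparisons. E2f8 read 7.47, 7.48 and 7.47 in WT day 0 arrays, 6.57, 6.85 and 7.08 in WT day 4 arrays, 7.06, 7.15 and 7.10 in KO day 0 arrays and 5.98, 6.13 and 6.09 in KO day 4 arrays. The KO day 4 arrays were the lowest 3 of the 12, and the WT day 0 arrays the highest. E2f8 fell in WT cells (-0.64 ± 0.11, 1.56-fold, adjusted p = 0.000806) and in KO cells (-1.04 ± 0.11, 2.06-fold, adjusted p = 1.63e-05). At day 4 it was lower in KO than in WT cells (KO minus WT -0.77 ± 0.11, 1.7-fold, adjusted p = 0.000477). These 3 calls held without any 1 of the 12 arrays.

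At day 0 the E2f8 arrays of KO cells already lay below those of WT cells, with a difference of -0.37 ± 0.11 that did not pass (adjusted p = 0.0743). Leaving out WT day 4 array 1 or 3 took it past the threshold (adjusted p = 0.00988 and 0.0236). It also passed in a fit to the day 0 arrays alone (adjusted p = 0.00509) and with array weights (adjusted p = 0.0053). The median SD of all genes within a group was 0.09 at day 0 and 0.12 to 0.13 at day 4. The difference of the changes, -0.40 ± 0.15, did not pass (adjusted p = 0.165) and passed without WT day 4 array 1 (-0.53, adjusted p = 0.0148). E2f7 gave 7.69, 7.68 and 7.71 in WT day 0 arrays, 7.33, 7.56 and 7.59 in WT day 4 arrays, 7.37, 7.42 and 7.37 in KO day 0 arrays and 7.13, 7.40 and 7.49 in KO day 4 arrays. Its change at day 4 was -0.20 ± 0.10 in WT cells (adjusted p = 0.179), and the KO change missed the threshold as well (-0.05 ± 0.10, 95% confidence interval -0.26 to 0.17, adjusted p = 0.778). At day 0 all 3 KO arrays lay below all 3 WT arrays. KO minus WT was -0.31 ± 0.10 and did not pass (unadjusted p = 0.00831, limma adjusted p = 0.104). The E2f7 difference passed without WT day 4 array 1 (adjusted p = 0.0494). It also passed in a fit to the day 0 arrays alone (adjusted p = 0.0107) and with array weights (adjusted p = 0.0146).

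Rb1, which encodes the retinoblastoma protein, had, at its brightest probe set, the largest changes of the 10 in both genotypes, while with the average of its probe sets its KO change was 0.89, smaller in size than that of E2f8 (-1.04). It read 7.70, 7.58 and 7.78 in WT day 0 arrays and 9.25, 8.78 and 9.23 in WT day 4 arrays, and 7.76, 7.82 and 7.91 in KO day 0 arrays and 9.82, 9.18 and 9.79 in KO day 4 arrays. The 6 day 4 arrays all lay above the 6 day 0 arrays. Rb1 rose by 1.40 ± 0.16 in WT cells (2.64-fold, adjusted p = 4.69e-05) and by 1.77 ± 0.16 in KO cells (3.4-fold, adjusted p = 6.98e-06). Of all genes, 1.64% had as large a change in WT cells and 0.839% in KO cells. KO minus WT at day 4 was 0.51 ± 0.16 (adjusted p = 0.0436), with arrays that overlapped, and this call held only without WT day 4 array 1 (adjusted p = 0.00369) or KO day 4 array 2. It was lost without any 1 of the other 10 arrays, with values of 0.36 to 0.58 (adjusted p = 0.0563 to 0.168). In a fit to the WT and KO day 4 arrays alone it did not pass either (limma adjusted p = 0.152).

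These Rb1 values come from 1 of 4 probe sets that carry its name. The second probe set annotated to Rb1 alone lay between 2.95 and 3.93, gave a change of 0.28 ± 0.17 in WT cells (limma adjusted p = 0.375 over all probe sets) and of 0.01 ± 0.17 in KO cells (adjusted p = 0.972), and was under the 25th percentile of genes, 3.75, on all arrays but WT day 4 array 3. A pair of probe sets was annotated to both Rb1 and Lpar6, a receptor gene. The brighter of them gave 0.15 ± 0.09 in WT cells (adjusted p = 0.374) and rose by 0.62 ± 0.09 in KO cells (adjusted p = 0.000613). The dimmer gave 0.57 ± 0.22 (adjusted p = 0.127) and rose by 0.94 ± 0.22 (adjusted p = 0.0102). With the average of the Rb1 probe sets, the Rb1 change was 0.84 in WT and 0.89 in KO cells (adjusted p = 0.000465 and 0.000226), and KO minus WT at day 4 was 0.06 (adjusted p = 0.8). The sources used here do not say which part of the Rb1 transcripts each probe set reads.

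**Figure D2:**
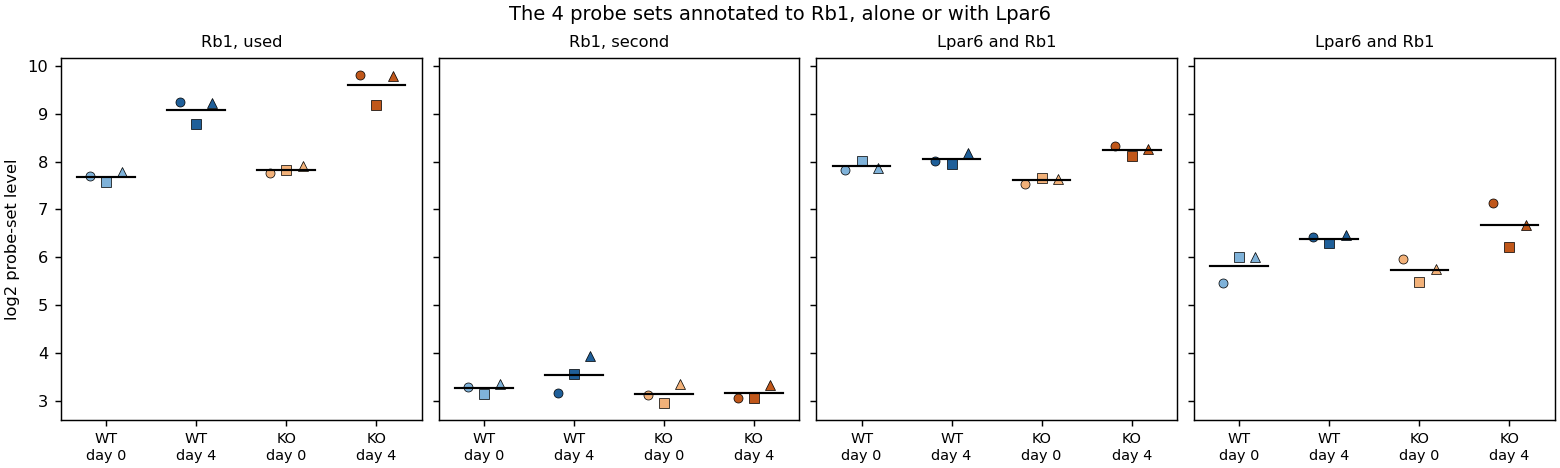
Log2 level (vertical axis, shared) of the 4 probe sets annotated to Rb1, alone or together with Lpar6, on the 12 arrays; symbols are arrays 1, 2 and 3 and bars are group means. The probe set used for Rb1 is 1.40 higher at day 4 in WT cells and 1.77 higher in KO cells, and the second Rb1 probe set stays between 2.95 and 3.93.

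Rbl1 (p107), the pocket protein of dividing cells, gave 7.85, 8.13 and 7.91 in WT day 0 arrays, 7.55, 7.80 and 7.97 in WT day 4 arrays, 7.70, 7.81 and 7.65 in KO day 0 arrays and 7.29, 7.44 and 7.43 in KO day 4 arrays. The KO day 4 arrays were the lowest of the 12, and WT day 0 and day 4 overlapped. Rbl1 fell in KO cells (-0.33 ± 0.11, 1.26-fold, adjusted p = 0.0382), and in WT cells its change was -0.19 ± 0.11 (adjusted p = 0.261). At day 4 Rbl1 was lower in KO than in WT cells (KO minus WT -0.38 ± 0.11, adjusted p = 0.0271). The KO fall was lost without any 1 of the 6 KO arrays (adjusted p = 0.0517 to 0.127). The genotype difference at day 4 was lost without WT day 4 array 2 or 3 or KO day 4 array 1 or 3 (adjusted p = 0.0516 to 0.117). It also missed the threshold in a fit to the WT and KO day 4 arrays alone (adjusted p = 0.0932).

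Rbl2 (p130), the pocket protein of resting cells, gave 7.55, 7.71 and 7.82 in WT day 0 arrays, 7.90, 8.08 and 7.97 in WT day 4 arrays, 7.76, 7.85 and 7.80 in KO day 0 arrays and 8.01, 7.95 and 8.05 in KO day 4 arrays. Every day 4 array lay above every day 0 array. The rise was 0.30 ± 0.08 in WT cells (1.23-fold, adjusted p = 0.0212), which missed the threshold without WT day 0 array 1 or 2 or WT day 4 array 2 (adjusted p = 0.0517 to 0.105). In KO cells the change was 0.20 ± 0.08 and did not pass (adjusted p = 0.0878). The difference between the changes was -0.09 ± 0.12 (95% confidence interval -0.35 to 0.16), so a call in WT cells and none in KO cells does not show that the genotypes differed. KO minus WT was 0.02 ± 0.08 at day 4 (adjusted p = 0.897).

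**Figure D3:**
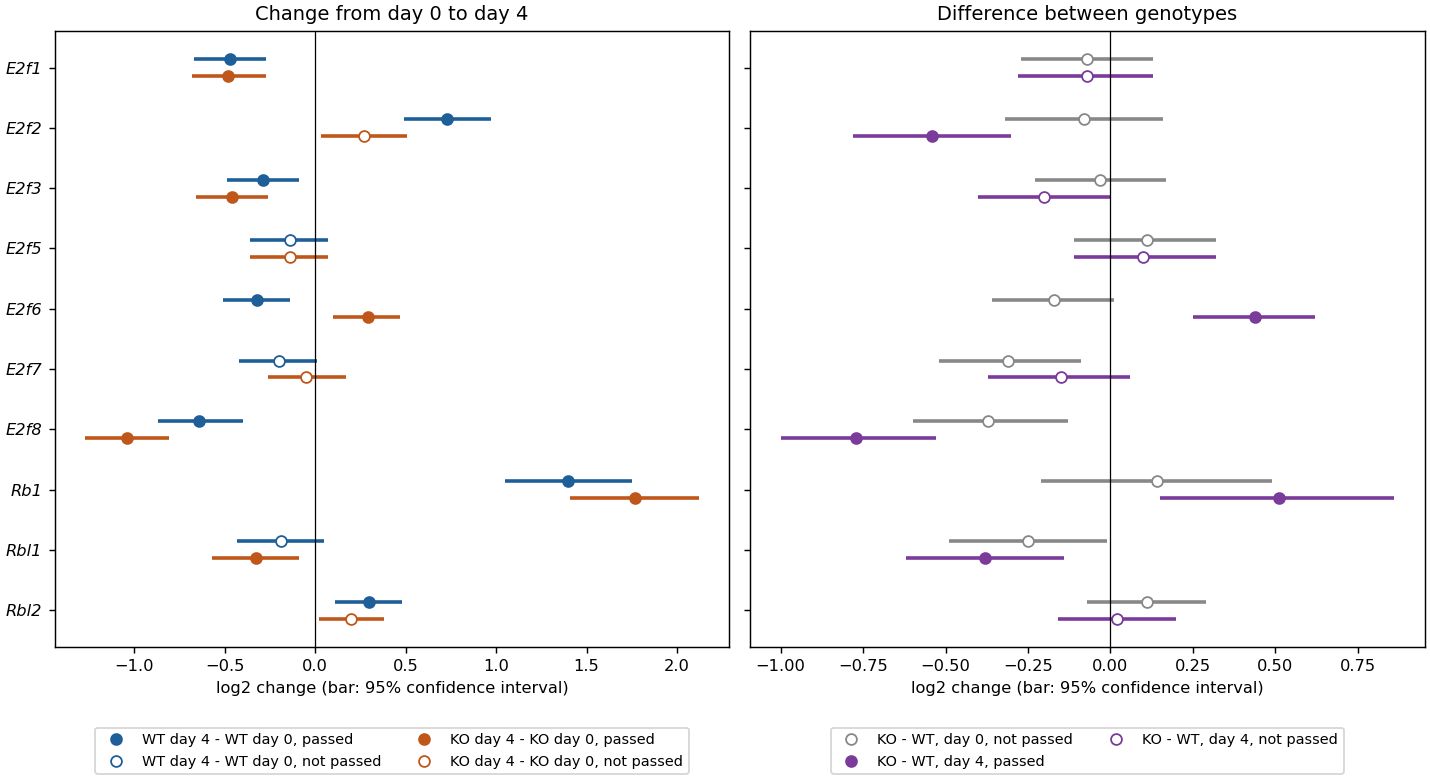
Log2 change (horizontal axis) of the 10 members with its 95% confidence interval as a bar; left, day 4 minus day 0 in WT (blue) and KO (orange) cells, and right, KO minus WT at day 0 (grey) and at day 4 (purple). Filled points passed an adjusted p of 0.05 over all genes and open points did not; the E2f6 changes lie on opposite sides of 0, at -0.32 and 0.29.

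The proteins that work with the E2Fs and pocket proteins were read in lists. Of the 2 DP partners, which most E2Fs need to bind DNA, Tfdp2 rose in both genotypes (0.81 ± 0.10, adjusted p = 9.21e-05, and 0.95 ± 0.10, adjusted p = 2.4e-05). Tfdp1 gave 0.05 and -0.10 at day 4 (adjusted p = 0.748 and 0.407) and was lower in KO than in WT cells at day 4 (-0.32, adjusted p = 0.0166). That call did not hold without WT day 4 array 2 or 3 or KO day 4 array 3. Of 7 measured cyclins and kinases that phosphorylate pocket proteins, 1 rose and 2 fell in each genotype. In WT cells 11.1% of all genes rose and 11.7% fell, and in KO cells 13.8% rose and 16.9% fell. Ccnd1, cyclin D1, rose by 0.82 in WT and 0.87 in KO cells (adjusted p = 7.5e-06 and 3.99e-06). Ccnd2 (-0.23) and Ccne1 (-0.29) fell in WT cells, and these calls were lost in part or whole without any 1 WT array or any 1 KO day 0 array. Cdk4 (-0.45) and Cdk2 (-0.35) fell in KO cells (adjusted p = 0.0015 and 0.00285). Both kinases were also lower in KO than in WT cells at day 4, Cdk4 with KO minus WT at -0.54 (adjusted p = 0.00119) and Cdk2 at -0.25 (adjusted p = 0.0298), with 1 of these calls left without WT day 4 array 3 or KO day 4 array 1 or 3. At day 4 12.4% of all genes were lower in KO than in WT cells. Cdk4 gave 0.00 in WT cells (adjusted p = 0.985), and KO minus WT of the changes, -0.46, missed the threshold (adjusted p = 0.0587). Without WT day 4 array 1, 1 gene of the list passed that test, 3 of the 7 rose in KO cells and 1 was higher in KO than in WT cells at day 4. Without WT day 4 array 3, 2 rose in WT cells.

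Of the 7 CDK inhibitors, 2 rose and 1 fell in WT cells, where 11.1% of all genes rose and 11.7% fell. In KO cells 3 rose and 2 fell, against 13.8% and 16.9% of all genes. Cdkn1c (p57) rose by 1.74 in WT and 1.57 in KO cells (adjusted p = 2.03e-06 and 3.82e-06), and Cdkn1b (p27) by 0.34 and 0.67 (adjusted p = 0.0118 and 8.34e-05). The Cdkn1b rise in WT cells is 1 of the 2 calls there, of which 1 was left without WT day 4 array 3. Cdkn2b (p15) fell, with changes of -0.72 and -0.63 (adjusted p = 0.000201 and 0.000402). In KO cells Cdkn2a rose (0.34, adjusted p = 0.0376) and Cdkn2c fell (-0.39, adjusted p = 0.0315), and the difference of changes passed for neither (adjusted p = 0.473 and 0.363). In WT cells 2 genes fell without WT day 4 array 1. In KO cells, without KO day 0 array 2 or 3 or KO day 4 array 1, 1 of the 2 falls was left. Cdkn1a (p21), the main p53-induced inhibitor, gave -0.01 and -0.11 (adjusted p = 0.92 and 0.228). At day 0 Cdkn1c was lower in KO than in WT cells (-0.57, adjusted p = 0.0253), which did not hold without WT day 0 array 1 or 2 or KO day 0 array 2 or 3. At day 4 Cdkn1b (0.31), Cdkn2a (0.50) and Cdkn2d (0.36) were higher and Cdkn1c (-0.74) and Cdkn2c (-0.57) lower in KO than in WT cells, with 1 of the 3 higher without KO day 4 array 1 or 2. On that day 8.34% of all genes were higher and 12.4% lower in KO cells.

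MuvB is the core that pairs with Rbl2 in DREAM in resting cells and with Mybl2 in dividing cells. Of the 7 genes of the MuvB core and its MYB partners, 4 fell in KO cells, a count that stayed at 4 without any 1 of the 12 arrays: Lin9 (-0.74, adjusted p = 0.000575), Lin37 (-0.29, adjusted p = 0.00852), Lin54 (-0.62, adjusted p = 9.58e-05) and Mybl2 (-0.53, adjusted p = 0.00227). Over all genes 16.9% fell in KO and 11.7% in WT cells. In WT cells 1 of the 7 fell, Lin54 (-0.29, adjusted p = 0.0217). The number of falls was 0 without WT day 0 array 1 or 2 or WT day 4 array 1, and 2 without WT day 4 array 3 or KO day 4 array 2. At day 4 Lin9 (-0.41), Lin52 (-0.33), Lin54 (-0.32) and Mybl2 (-0.62, adjusted p = 0.00198) were lower and Mybl1 (0.44) higher in KO than in WT cells. Over all genes 12.4% were lower and 8.34% higher there. The number of lower genes among the 7 was 1 without WT day 4 array 2 or 3 and 2 without any 1 of the KO day 4 arrays. The Mybl1 call was lost without WT day 4 array 1 or 2 or KO day 4 array 1 or 3. Mybl1 also had a difference of changes that passed (0.72, adjusted p = 0.045), lost without 9 of the 12 single arrays, among them every day 0 array.

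E2f6 acts with a Polycomb complex, and of 10 genes for its partners 2 rose and 1 fell in WT cells, where 11.1% of all genes rose and 11.7% fell, and 1 rose and 2 fell in KO cells, where 13.8% rose and 16.9% fell. In WT cells Max (0.33, adjusted p = 0.00377) and Pcgf6 (0.43, adjusted p = 0.0236) were higher and Yaf2 (-0.22, adjusted p = 0.0455) lower. The Yaf2 fall was lost without any 1 of 9 arrays, and 1 of the 2 rises was left without WT day 0 array 2 or WT day 4 array 3. In KO cells L3mbtl2 (-0.48, adjusted p = 0.00142) and Wdr5 (-0.28, adjusted p = 0.0148) were lower and Rybp (0.27, adjusted p = 0.0116) higher, with no rise left without KO day 0 array 3 and 1 fall without KO day 4 array 3. At day 4 L3mbtl2 (-0.66, adjusted p = 0.000441), Wdr5 (-0.43, adjusted p = 0.00245) and Ring1 (-0.40, adjusted p = 0.027) were lower and Rnf2 (0.24, adjusted p = 0.0488) higher in KO than in WT cells. That Rnf2 call was lost without any 1 of the 12 arrays, and 5 were lower without WT day 4 array 1. Over all genes 8.34% were higher and 12.4% lower in KO than in WT cells at day 4. E2f6 itself was higher in KO cells at day 4, by 0.44.

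The genes that E2Fs regulate were read as well. The choice of members did not use them, but these lists too were chosen with earlier results of these data known. Of 36 G1/S targets, genes for origin licensing, replication forks and nucleotide supply, 32 were measured. In KO cells 22 of 32 fell and 1 rose, with a median change of -0.41 against -0.01 over all genes, and 16.9% of all genes were lower. Cdc45 (-0.84 ± 0.09, adjusted p = 2.67e-05), Fen1 (-0.71), Mcm5 (-1.08) and the single rise, Cdca7 (1.05), had the smallest p. In WT cells 10 of 32 fell and 2 rose (median -0.08), against 11.7% of all genes lower. Rrm1 (-0.41), which makes deoxynucleotides, and Fen1 (-0.36) led the falls, and the rises were those of Cdca7 (1.18) and Cdt1 (0.47). The WT falls numbered 6 without WT day 0 array 1 or WT day 4 array 2, 5 without WT day 4 array 1 and 4 without WT day 0 array 3, and the WT rises 4 without WT day 4 array 1. The KO rises numbered 2 without WT day 4 array 1 or 3 or KO day 0 array 2.

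Between genotypes the G1/S targets stood apart at day 4. There 25 of 32 were lower in KO cells (median -0.51), against 12.4% of all genes, and 17 to 27 were lower without any 1 of the 12 arrays. The leading ones were Mcm5 (-1.20 ± 0.14, adjusted p = 0.000168), Cdc45 (-0.72), Uhrf1 (-0.85) and Tk1 (-0.70). In a fit to the WT and KO day 4 arrays alone 15 were lower. At day 0 none passed in limma (median -0.18), and 1 passed without WT day 4 array 1 or KO day 4 array 2. There 9 of 32 had an unadjusted p under 0.05, all lower, against 16.7% of all genes in either direction. With array weights 4 were lower at day 0, and in a fit to the compared groups alone 4 were. The difference of changes passed for 6 of 32, all more negative in KO cells, against 1.81% of all genes, and Chek1 (-0.70), Mcm5 (-0.89), Uhrf1 (-0.68) and Tk1 (-0.56) led them. That count was 0 to 3 without any 1 of the day 0 arrays, WT day 4 array 2 or 3 or KO day 4 array 1, and 10 without WT day 4 array 1.

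Of 14 G2/M targets, mitosis genes under MuvB, 13 were measured and 8 fell in each genotype, against 11.7% of all genes in WT and 16.9% in KO cells. The median change of the 13 was -0.36 in WT and -0.50 in KO cells. In WT and KO cells in turn, the change was -0.57 and -0.95 for Kif20a, -0.70 and -0.91 for Foxm1 and -0.46 and -0.98 for Plk1. At day 4 7 of 13 were lower in KO than in WT cells (median -0.42), against 12.4% of all genes. Cdc20 (-0.94, adjusted p = 7.03e-05) and Plk1 (-0.79, adjusted p = 0.000271) led them. Of the 13, 1 was lower at day 0, Cdc20 (-0.38, adjusted p = 0.0323), against 3.12% of all genes. There 6 of the 13 had an unadjusted limma p under 0.05, against 16.7% of all genes in either direction. Without any 1 of the 6 day 0 arrays 0 were lower, and without WT day 4 array 1 2 were. Cdc20 also had the 1 difference of changes that passed (-0.56, adjusted p = 0.0361), where 1.81% of all genes had a lower change in KO cells. No such difference passed without any 1 of the other arrays except KO day 4 array 1, which left 1, and WT day 4 array 1, which gave 6.

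Set beside the members, the mean of the 32 G1/S targets, each centred over the 12 arrays, was 0.17 to 0.20 in WT day 0, -0.03, 0.12 and 0.30 in WT day 4, -0.01 to 0.06 in KO day 0 and -0.43 to -0.30 in KO day 4 arrays. WT day 4 array 1 was the lowest of its group, as it was for E2f3, E2f5, E2f7, E2f8, Rbl1 and Rbl2. The mean of the 13 G2/M targets was 0.26 to 0.34 in WT day 0, -0.18 to 0.13 in WT day 4, 0.10 to 0.18 in KO day 0 and -0.47 to -0.38 in KO day 4 arrays. The macrophage and blood mean on the same scale was 1.14 in WT day 4 array 1, 0.32 to 0.62 in the other WT arrays and -0.71 to -0.56 in the KO arrays. It separated the genotypes on both days, and none of the 10 markers changed from day 0 to day 4 in KO cells by limma's adjusted p, where 2 had an unadjusted p under 0.05. In WT cells 1 rose, Cd68 (0.42, adjusted p = 0.00421), and 2 fell, Csf1r (-0.65, adjusted p = 0.00254) and Cx3cr1 (-0.73, adjusted p = 0.00267).

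**Figure D4:**
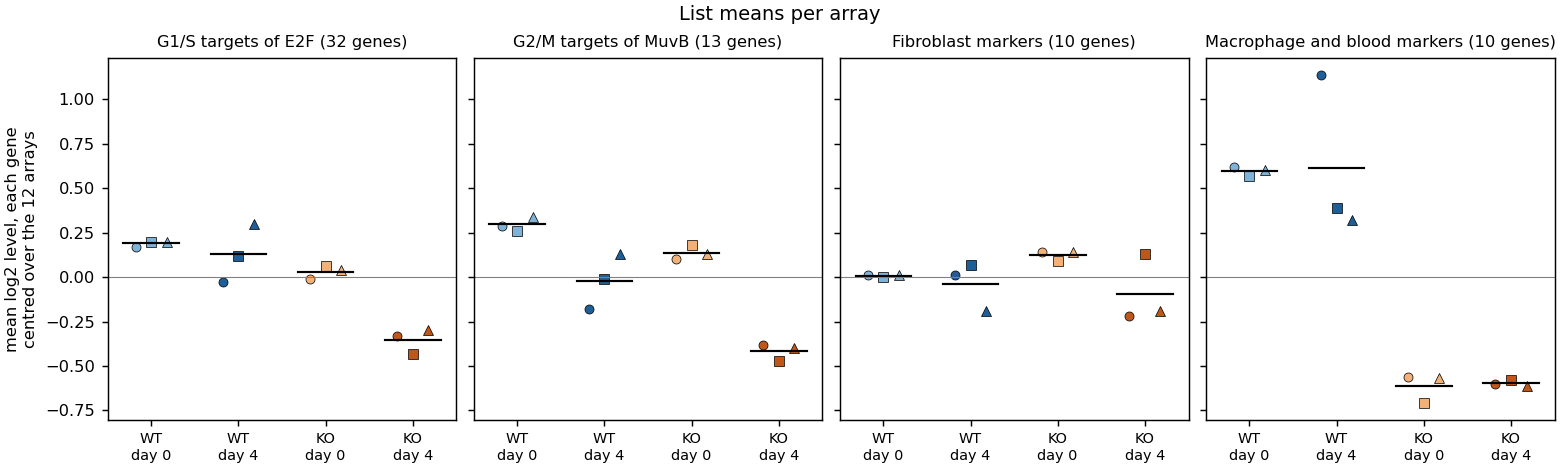
Mean log2 level (vertical axis) of 4 gene lists on the 12 arrays, each gene centred over the arrays; symbols are arrays 1, 2 and 3 and bars are group means. The KO day 4 arrays are the lowest for the G1/S targets (-0.43 to -0.30) and the G2/M targets (-0.47 to -0.38), while the macrophage and blood markers separate WT from KO arrays on both days.

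Genes with a course most like those of single members were ranked by the root mean square difference of centred levels over the 12 arrays. For Rb1, whose brightest probe set had the largest day 4 change of the members in both genotypes, these were Arhgef3 (0.135), Rps6ka5 (0.158), Cyyr1 (0.168), Pir (0.17) and Vit (0.171), against a root mean square of 0.84 for Rb1 about its own mean. For E2f6, the member with the largest difference of changes, they were Ppil6 (0.082), Antxrl (0.084), Aktip (0.086), Osgin1 (0.093) and Tmem33 (0.093), against 0.18 for E2f6 itself. Aktip, for example, changed by -0.30 in WT and 0.24 in KO cells, beside -0.32 and 0.29 for E2f6.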

How the data were processed

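RNA of 12 samples was measured on Affymetrix arrays and summarised with Affymetrix Expression Console, per the submitters' processing notes. The sources used here give no version and no background, normalization or summary method. The deposited log2 values, between 1.33 and 13.35, were used as the authors gave them, and no sample column was left unassigned (0 others). Of 41345 probe sets, 23521 had 1 gene symbol in the platform annotation, 1814 several and 16010 none. The probe set with the highest mean over the 12 arrays stood for each of 22180 genes, of which 1082 had more than 1.

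Group means were fitted in limma 3.58.1 (R 4.3.3) over all 12 arrays, with 8 residual degrees of freedom and empirical Bayes shrinkage. The 5 comparisons were adjusted over all genes by Benjamini-Hochberg, at a threshold of 0.05. The fit was tested on simulated data. The number of arrays limits the precision. Replicate numbers were not used as a block, because deviations of same-numbered arrays correlated between -0.06 and 0.182 and passed 0.1 only for numbers 2 and 3 of the day 4 genotype comparison. The members and the 13 gene lists were chosen with earlier results of these data known. All members are named. Of each list, up to 4 genes past the threshold with the smallest p per comparison, any where 5 or fewer passed and the 2 with the smallest p where none did could be named, and direct partners of members (cyclins, kinases and inhibitors included) whatever their values. Not every eligible gene is named. The 5 genes nearest in course to the members with the largest changes and the largest difference of changes, and checks of the labels, are also named. Alternatives covered normalization, filtering, probe-set choice, the prior, array weights, the arrays fitted, a minimum fold, the replicate block and leaving out each array.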

Additional observations from a re-analysis of the deposited data

Results flagged for a closer look

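E2f6 stood out because its change from day 0 to day 4 differed between the genotypes by a test of the difference itself. It fell in WT cells (-0.32 ± 0.09, SE, n = 3 per group) and rose in KO cells (0.29 ± 0.09), and the difference of the log2 changes was 0.61 ± 0.12 (limma adjusted p = 0.0171 over all genes). Of all genes, 3.95% passed that test and 4.98% had as large a difference. The value lay between 0.56 and 0.68 when each array was left out in turn, with an adjusted p of 0.0509 without KO day 0 array 1.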

How the results depend on the processing

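Of the 19 member results that passed, 11 held under every alternative except the 2-fold minimum and without each of the 12 arrays, and none changed direction. With the 2-fold minimum 3 held, Rb1 in both genotypes and E2f8 in KO cells. The 11 were E2f1, E2f8 and Rb1 from day 0 to day 4 in both genotypes, E2f2 in WT and E2f3 in KO cells, and KO minus WT at day 4 for E2f2, E2f6 and E2f8. Of 1040 values of the 50 member results under the alternatives without that minimum, 961 kept their direction and side of the threshold, 46 no longer passed, 14 newly passed and 19 changed sign. The cause was not tested.

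The number of members that passed was 7 in WT cells (4 to 7 with each array left out, 1 with at least a 2-fold change) and 6 in KO cells (4 to 7, 2). Between genotypes it was 0 at day 0 (0 to 2; 2 with array weights and 2 in a fit to the compared groups alone) and 5 at day 4 (3 to 6; 3 with all probe sets tested, 3 with the compared groups alone, 0 with a 2-fold change). For the difference of changes it was 1 (0 to 2; 2 with array weights, 0 with a 2-fold change). With the replicate number as a block these counts were 7, 6, 0, 5 and 1, and no member's call changed. Among the lists, the block moved the number lower in WT cells from 2 to 1 for the cyclins and kinases and from 1 to 0 for the E2F6 partners. In a fit to the compared groups alone, the falls among the G1/S targets in WT cells numbered 5 rather than 10, and with all probe sets tested none of them had a difference of changes.

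The sign changes were all in values near 0 that did not pass. For the difference of changes, E2f1 gave 0.04 with quantile normalization and -0.09 to 0.07 with each array left out, and E2f5 gave 0.05 and -0.10 to 0.08. E2f3 at day 0 between genotypes gave -0.07 to 0.00, E2f7 in KO cells -0.12 to 0.06, and Rbl2 at day 4 between genotypes -0.02 to 0.07, with 0.00 under array weights.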
